A study of Mus musculus with 9 samples.

Results

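The 8 genes described here form the core loop of the mammalian circadian clock. They were chosen by symbol, as Clock, Arntl, Npas2, Per1, Per2, Per3, Cry1 and Cry2, and all 8 were found among 27497 Ensembl identifiers. Their levels were read in the olfactory bulb, the forebrain region that receives the axons of olfactory sensory neurons, of 9 separate adult C57/BL6 mice, 6 to 8 weeks old or older. The labels give no genetic alteration, transgene or drug in any group. A clean air group of 3 mice breathed air filtered through activated carbon. A 30 min group of 3 mice was killed as a 30 min exposure to a mixture of odorants ended, and a 120 min group of 3 mice had the same exposure and then 90 min without odor. Polyadenylated RNA was sequenced from paired ends. The sources used here do not give the hour of the day at which each mouse was killed or the light schedule, so odor exposure and hour of collection cannot be told apart from the design.

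In the mammalian clock, the proteins CLOCK and BMAL1 (the product of Arntl) bind E-box sequences as a pair and drive transcription of the Per and Cry genes, and NPAS2 can take the place of CLOCK. PER and CRY proteins accumulate and inhibit the pair that made them, which gives a daily cycle, and the nuclear receptors of the Nr1d and Ror genes adjust Arntl in a second loop. Per1 and Per2 are also reached from outside the loop, through cAMP response elements (CREs) bound by CREB in active cells and through glucocorticoid receptor sites, while the olfactory bulb is known to keep a daily rhythm of its own.

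Positions are those of GRCm38, taken from GENCODE M21 by identifier, while the deposited levels rest on mm9. All 8 genes are protein-coding, and a level covers the annotated gene and not a single site. The activators lie at chr5:76209868-76304792, minus strand (Clock, ENSMUSG00000029238), chr7:113207465-113314126, plus strand (Arntl, ENSMUSG00000055116) and chr1:39193731-39363236, plus strand (Npas2, ENSMUSG00000026077). The Per genes lie at chr11:69095217-69109960, plus strand (Per1, ENSMUSG00000020893), chr1:91415982-91459324, minus strand (Per2, ENSMUSG00000055866) and chr4:151003652-151044665, minus strand (Per3, ENSMUSG00000028957). Cry1 (ENSMUSG00000020038) lies at chr10:85131700-85185064 and Cry2 (ENSMUSG00000068742) at chr2:92403646-92434043, both on the minus strand.

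The table of RefSeq promoters (GRCm38.p6) held 11 windows for 7 of the 8 genes, each running from 250 bases before a start to 50 bases after it. Per2 had no window and was not searched. The letters of known clock and activity elements were searched on both strands. Per1 and Per3 are printed because at 30 min they had the most opposed differences of the Per genes. Capitals mark the E-box, CACGTG, in the first Per1 window (chr11:69098699-69098998, plus strand), the CRE core TGACGT in the second (chr11:69099902-69100201, plus strand) and the D-box TTATGTAA, the letters bound by the clock output factor DBP and its relatives, in Per3 (chr4:151044616-151044915, minus strand).
Per1 first start: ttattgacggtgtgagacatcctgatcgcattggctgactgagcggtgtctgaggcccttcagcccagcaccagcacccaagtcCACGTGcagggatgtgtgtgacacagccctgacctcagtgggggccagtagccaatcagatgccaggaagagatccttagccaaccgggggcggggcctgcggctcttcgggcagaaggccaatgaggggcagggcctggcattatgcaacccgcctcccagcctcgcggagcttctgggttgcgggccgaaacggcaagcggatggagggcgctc
Per1 second start: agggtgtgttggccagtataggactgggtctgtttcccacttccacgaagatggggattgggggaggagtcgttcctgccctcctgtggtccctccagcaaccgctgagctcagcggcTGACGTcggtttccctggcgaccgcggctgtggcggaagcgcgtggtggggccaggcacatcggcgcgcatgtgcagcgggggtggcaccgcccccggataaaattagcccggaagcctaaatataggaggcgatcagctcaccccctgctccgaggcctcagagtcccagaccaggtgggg
Per3: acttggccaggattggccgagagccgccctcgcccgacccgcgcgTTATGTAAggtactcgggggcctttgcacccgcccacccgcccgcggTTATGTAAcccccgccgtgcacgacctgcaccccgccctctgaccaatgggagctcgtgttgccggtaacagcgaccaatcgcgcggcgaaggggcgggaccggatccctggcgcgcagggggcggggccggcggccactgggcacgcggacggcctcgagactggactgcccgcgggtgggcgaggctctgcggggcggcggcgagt
The Per1 E-box begins at position -166 from its start and the CRE core at -132, and the Per3 D-box appears at -205 and again at -158. Over 32851 windows of the same length, 7.15% held these letters of the E-box, 7.51% the CRE core and 0.938% the D-box. The E-box was also found in the Cry1 window at position -60. The ROR element TAGGTCA, through which the second loop acts and which 2.61% of all windows held, was found in 1 of the Arntl windows at position 30. No letters of the search were found in the Clock, Npas2 or Cry2 windows, which says nothing about sites outside them. The full CRE TGACGTCA (1.79% of all windows), the D-box TTACGTAA (0.119%) and the CArG box (1.63%), which binds serum response factor, were found in none of the 11 windows. The core is contained in the full CRE.

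Levels are in RPKM, reads per kilobase of gene and megaread, so that genes can be compared per length. Over all 9 libraries Cry2 had the highest level of the loop, at 60.0 ± 9.42 RPKM (SD, n = 9 mice), followed by Per1 at 44.7 ± 12.5 RPKM. Cry1 (12.4 ± 1.5 RPKM), Arntl (12.2 ± 2.09), Per3 (9.80 ± 1.62), Clock (9.79 ± 2.73) and Npas2 (9.53 ± 1.85) lay close together, and Per2 was lowest at 6.45 ± 1.72 RPKM. Cry2 exceeded Per1 in 8 of 9 libraries, and Per1 exceeded Cry1, and Npas2 exceeded Per2, in 9 of 9. Neighbours in the middle of this order did not separate: Cry1 exceeded Arntl in 6 libraries, Per3 exceeded Clock in 4 and Clock exceeded Npas2 in 5, with differences well inside their spread over the 9 libraries. The order of Per3 and Clock turned with the group, since Per3 was the higher in 3 of 3 clean air mice, 1 of 3 at 30 min and 0 of 3 at 120 min. Arntl exceeded Per3 in 8 libraries, by 2.39 ± 2.60 RPKM. Per1 had the widest span of the 8, its highest library being 2.84 times its lowest, and Cry1 the narrowest, at 1.32 times.

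Depth recovered from the spacing of the deposited values was 7.17 to 29.9 megareads (M) per library, where a counted unit may be a read or a pair, and 3 counts corresponded to 0.1 to 0.418 RPKM for a gene of 1 kb. The thinnest member value, Per3 in 120 min mouse 3, still rested on 46.6 counts per kilobase, a number that bears on counting error only. Differences below are on the log2(RPKM + 0.5) scale with the standard error of a limma fit to all 9 libraries. Genes were called where the p-value, adjusted by Benjamini-Hochberg over the 12780 genes whose mean reached 1 RPKM, was under 0.05. All 8 clock genes entered that test.

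**Figure D1:**
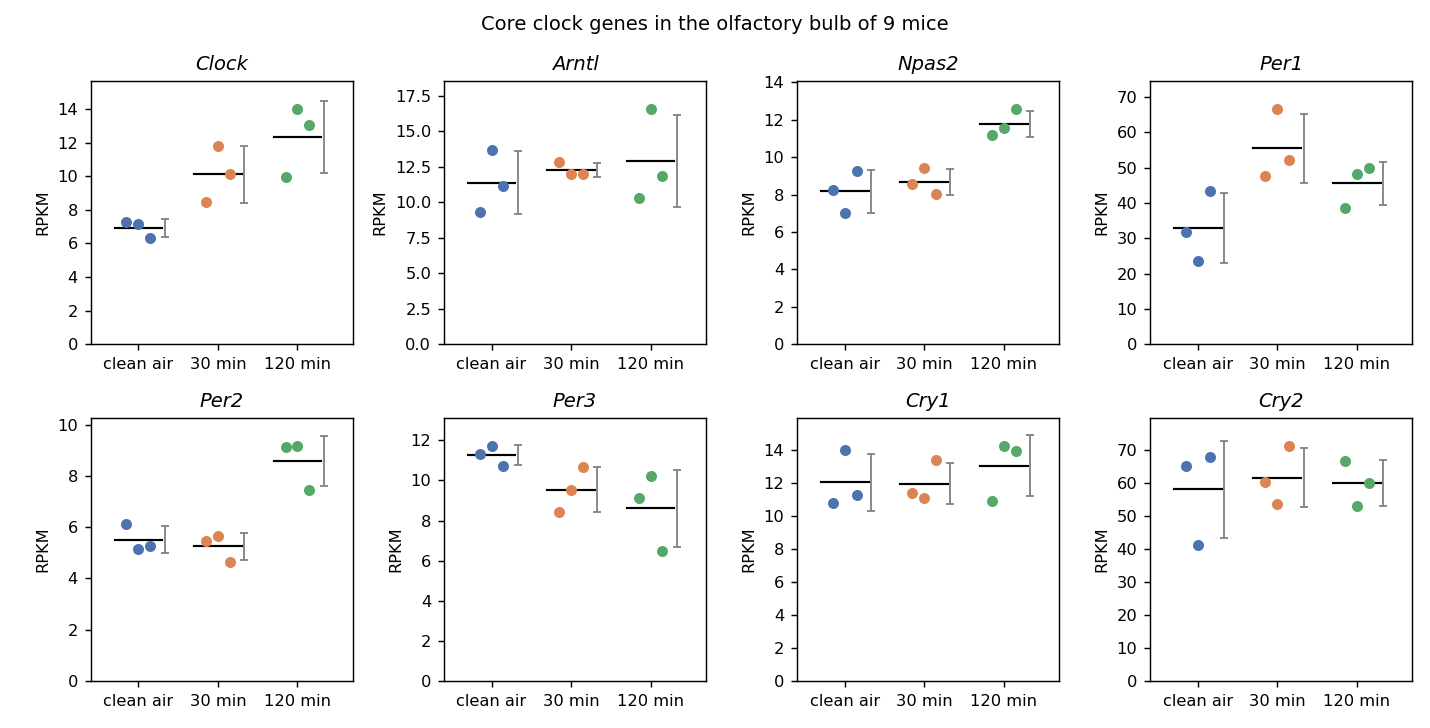
Level of each core clock gene (RPKM, vertical axes starting at 0) in every mouse of the clean air, 30 min and 120 min groups, with points for mice, black lines for group means and grey bars for SD (n = 3). Per1 lies at 47.74 to 66.55 RPKM in the 30 min mice against 23.43 to 43.34 in clean air, Per2 at 7.46 to 9.17 in the 120 min mice against 5.15 to 6.11 in clean air, and Per3 is lower in both exposed groups.

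No core clock gene passed the adjusted test in any comparison, so the separations between mice given here are descriptions of values. At 30 min Per1 and Clock had higher levels than in clean air. At 120 min Clock, Npas2 and Per2 did, and Per3 was lower than in clean air at both times. Arntl, Cry1 and Cry2 overlapped between all groups. In bulk tissue, a shift in the number of cells that express a gene and a shift in RNA per cell cannot be told apart.

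At 30 min, 0 of 8 members were called by limma, beside 0.141% of all tested genes, and 2 had an unadjusted p under 0.05 (Per1 and Clock), beside 5.92%. The 30 min and clean air mice did not overlap for 2 members in the higher direction and 1 in the lower, beside 7.29% and 4.08% of all genes. The median difference of the 8 was 0.10, against 0.08 over all tested genes. With only 8 members, shares of this kind rest on single genes.

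At 120 min, 0 of 8 were called, beside 0.0861% of all genes, and 3 had an unadjusted p under 0.05 (Clock, Npas2 and Per2), beside 9.57%. Non-overlap with clean air was seen for 3 members in the higher direction and 1 in the lower, beside 7.86% and 5.27% of all genes. Of the 8 estimates 7 were above 0, and their median was 0.33 against 0.03 for all tested genes. Both comparisons use the same clean air mice, so they are not independent of each other.

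Between 120 min and 30 min, 0 of 8 were called, beside 0.0782% of all genes, and 2 had an unadjusted p under 0.05 (Per2 and Npas2), beside 3.36%. These 2 were also the members whose mice did not overlap, both higher at 120 min, beside 4.99% of all genes in that direction and 5.66% in the other. In the F test over the 3 groups 0 members were called, beside 0.164% of genes, and 4 had an unadjusted p under 0.05, beside 6.64%. The lowest adjusted F values were 0.566 for Clock and for Per2.

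**Figure D2:**
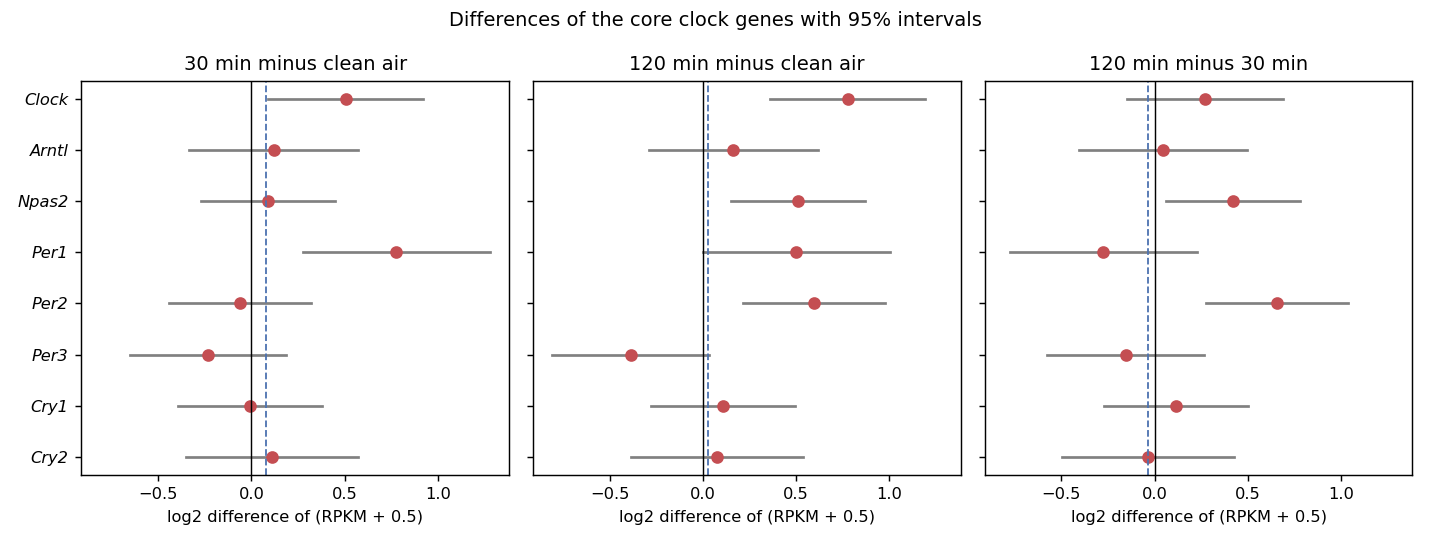
Difference of each core clock gene on the log2(RPKM + 0.5) scale (horizontal axes) for the 3 comparisons, with points for limma estimates, grey lines for 95% intervals and a dashed blue line for the median of all tested genes. The intervals of Per1 and Clock lie above 0 at 30 min, those of Clock, Npas2 and Per2 at 120 min, and those of Per2 and Npas2 between 120 min and 30 min, before any adjustment for the number of genes.

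Among the activators, Clock, which encodes a DNA-binding partner of BMAL1 with histone acetyltransferase activity, had 7.29, 7.16 and 6.33 RPKM in clean air mice 1, 2 and 3, 8.44, 11.82 and 10.1 RPKM in the 30 min mice, and 9.92, 13.98 and 13.07 RPKM in the 120 min mice. All 6 exposed mice lay above all 3 clean air mice, and the exposed groups overlapped with each other. The difference from clean air was 0.51 ± 0.19 at 30 min (limma adjusted p = 0.818) and 0.78 ± 0.19 at 120 min (adjusted p = 0.339, 95% interval 0.36 to 1.19). The second estimate was 1.71-fold. Clock has the longest exonic sequence of the 8 genes, 13727 nt, and long genes tended to have higher estimates in these libraries. With that trend removed its difference was 0.31 at 30 min and 0.56 at 120 min, a correction added after the data were seen.

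Arntl encodes BMAL1, without which the loop does not run in mice. It had 9.31, 13.7 and 11.16 RPKM in clean air, 12.82, 12.01 and 12 RPKM in the 30 min mice, and 10.33, 16.57 and 11.84 RPKM at 120 min. The groups overlapped throughout, and the highest value of each of the clean air and 120 min groups was that of mouse 2. Differences from clean air were 0.12 ± 0.20 at 30 min and 0.16 ± 0.20 at 120 min (limma adjusted p = 0.918 and 0.853). Their 95% intervals, -0.33 to 0.57 and -0.29 to 0.62, leave room for shifts of either sign.

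Npas2 is the relative of Clock that can pair with BMAL1 in the forebrain. Clean air mice had 8.26, 6.99 and 9.24 RPKM, the 30 min mice 8.55, 9.4 and 8.05 RPKM, and the 120 min mice 11.17, 11.57 and 12.56 RPKM. Those 3 mice lay above all of the other 6, whereas clean air and 30 min mice overlapped. The difference from clean air was 0.09 ± 0.16 at 30 min and 0.51 ± 0.16 at 120 min (limma adjusted p = 0.926 and 0.364), and 120 min exceeded 30 min by 0.42 ± 0.16 (adjusted p = 0.999, unadjusted p = 0.0257).

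Among the repressors, Per1 encodes a partner of the CRY proteins and is the Per gene best known for a fast response to light and to neuronal activity. It had 31.84, 23.43 and 43.34 RPKM in clean air, 47.74, 66.55 and 52.27 RPKM in the 30 min mice, and 38.62, 48.27 and 49.88 RPKM at 120 min. The 30 min mice lay above every clean air mouse, while the 120 min mice overlapped with both groups. The means were 32.9 ± 9.99, 55.5 ± 9.82 and 45.6 ± 6.09 RPKM (SD, n = 3). The difference from clean air was 0.78 ± 0.23 at 30 min, or 1.71-fold (limma adjusted p = 0.731, unadjusted p = 0.00597, 95% interval 0.27 to 1.28), and 0.50 ± 0.23 at 120 min (adjusted p = 0.522). From 30 min to 120 min it was -0.28 ± 0.23 (adjusted p = 0.999).

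The clean air value of Per1 depended on the mouse. Clean air mouse 3 had the highest Per1 of its group and also the highest Fos, the AP-1 subunit used as a marker of neuronal activity, with 12.1 RPKM against 4.73 and 4.04 RPKM in clean air mice 1 and 2. Its Egr1 (67.52 RPKM against 21.24 and 22.29) and Nr4a1 (75.54 RPKM against 18.12 and 22.94) were the highest of the group as well. Among the tested early genes, Egr4 and Nr4a2 were not highest in that mouse and all others were. Of the other core clock genes, Npas2 (9.24 RPKM) and Cry2 (68.04 RPKM) were also highest in it, and Clock, Arntl, Per2, Per3 and Cry1 were not. Without clean air mouse 3 the Per1 difference was 1.00 at 30 min and 0.72 at 120 min. Without clean air mouse 2, which had the lowest Per1, it was 0.56 and 0.28, so that leaving out 1 clean air mouse moved the 120 min estimate by more than 1.5 times.

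Per2, which mice need for a stable rhythm, had its high values at the later time. Clean air mice had 6.11, 5.15 and 5.25 RPKM, the 30 min mice 5.47, 5.65 and 4.65 RPKM, and the 120 min mice 9.13, 9.17 and 7.46 RPKM. The clean air and 30 min mice overlapped, and each 120 min mouse lay above all 6 of them. Its means were 5.5 ± 0.528, 5.26 ± 0.533 and 8.59 ± 0.976 RPKM. The difference from clean air was -0.06 ± 0.17 at 30 min (limma adjusted p = 0.95) and 0.60 ± 0.17 at 120 min, or 1.51-fold (adjusted p = 0.342, 95% interval 0.21 to 0.98). The 120 min mice exceeded the 30 min mice by 0.66 ± 0.17, with an unadjusted p of 0.00312 and an adjusted p of 0.999.

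Per3, the family member that mice can lose with little effect on their rhythm, had 11.32, 11.72 and 10.72 RPKM in clean air. It had 8.42, 9.54 and 10.66 RPKM at 30 min and 9.12, 10.23 and 6.5 RPKM at 120 min. All 6 exposed mice were below all clean air mice, at 30 min by a margin of 10.66 against 10.72 RPKM. The differences were -0.23 ± 0.19 at 30 min and -0.39 ± 0.19 at 120 min (limma adjusted p = 0.845 and 0.554), and both 95% intervals, -0.65 to 0.19 and -0.81 to 0.03, included 0. Without 120 min mouse 3, the lowest of all, the second difference was -0.21.

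Cry1 and Cry2 encode the cryptochromes, which hold the CLOCK and BMAL1 pair inactive together with the PER proteins. Cry1 had 10.82, 14.04 and 11.32 RPKM in clean air, 11.43, 11.11 and 13.4 RPKM in the 30 min mice and 10.93, 14.27 and 13.97 RPKM at 120 min. Cry2 had 65.17, 41.15 and 68.04 RPKM, then 60.27, 53.58 and 71.31 RPKM, and then 66.87, 53.14 and 60.08 RPKM. Neither gene separated any pair of groups, and mouse 2 had the lowest Cry2 of each group. The Cry1 differences were -0.01 ± 0.18 at 30 min (95% interval -0.39 to 0.38) and 0.11 ± 0.18 at 120 min (-0.28 to 0.50). Those of Cry2 were 0.11 ± 0.21 (-0.35 to 0.57) and 0.07 ± 0.21 (-0.39 to 0.54). Shifts of the sizes inside these intervals could not be resolved with 3 mice per group.

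Ratios between 2 clock genes of the same library, taken after adding 0.5 RPKM to each, depend little on how that library was scaled, and they showed where the Per genes parted. The log2 ratio of Per1 to Per2 was 2.29, 2.08 and 2.93 in clean air, 3.01, 3.45 and 3.36 at 30 min, and 2.02, 2.33 and 2.66 at 120 min. The 30 min mice lay above all others, and the 120 min mice lay within or just below the clean air range. The shift was 0.84 at 30 min (two-sided exact permutation p = 0.1, adjusted p = 0.2 over 8 ratio tests) and -0.09 at 120 min (exact p = 0.7). With 3 mice against 3 the smallest exact p is 0.1, so none of these tests could reach 0.05.

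Set against Per3, Per1 was higher in both exposed groups. The log2 ratio of Per1 to Per3 was 1.45, 0.97 and 1.97 in clean air, 2.44, 2.74 and 2.24 at 30 min, and 2.02, 2.18 and 2.85 at 120 min, without overlap between clean air and either exposed group. It shifted by 1.01 and 0.89 (exact permutation p = 0.1 and adjusted p = 0.2 for each). The ratio of Per1 to Cry1 shifted by 0.78 at 30 min (exact p = 0.1) and 0.39 at 120 min (exact p = 0.4). Without clean air mouse 2 these shifts were 0.45 and 0.06, and over all mice left out singly they spanned 0.45 to 1.04 and 0.06 to 0.65. The ratio of Arntl to Per3, 2 genes that cycle in opposite phase in many mouse tissues, shifted by 0.35 and 0.55 (exact p = 0.2 for each), and its groups overlapped.

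**Figure D3:**
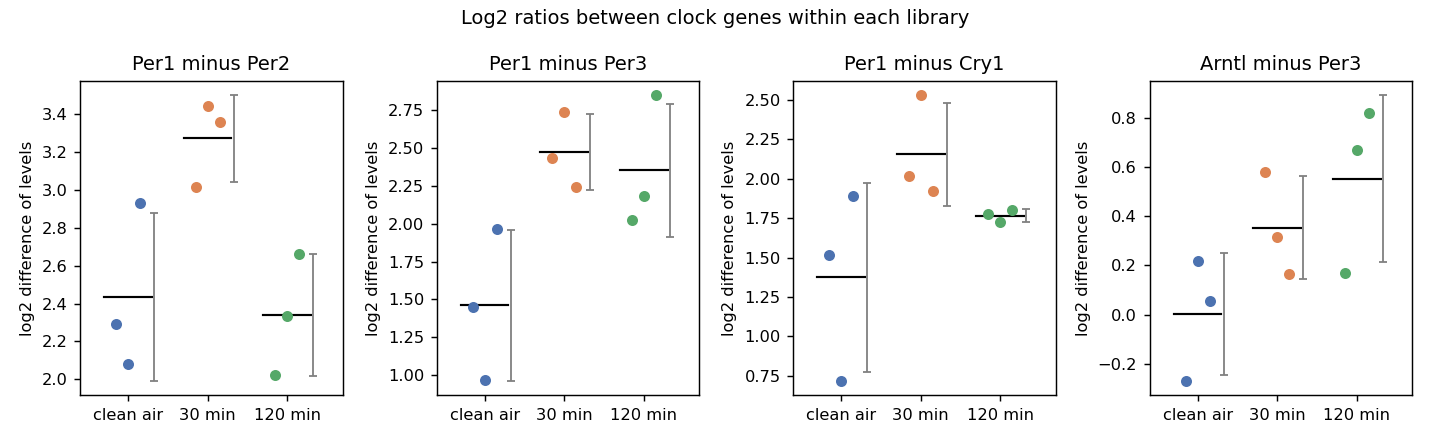
Log2 ratio between 2 clock genes within each library (vertical axes, which do not start at 0) by group, with points for mice, black lines for means and grey bars for SD (n = 3). The ratio of Per1 to Per2 is 3.01 to 3.45 in the 30 min mice and 2.02 to 2.93 in the other 6, whereas the ratio of Per1 to Per3 is higher than in clean air at both times.

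The genes driven by the loop gave a second reading of it. Of the listed output and second-loop genes 9 were tested, and 0 were called at either time by limma, with 3 at an unadjusted p under 0.05 at 30 min and 3 at 120 min. For this and the lists that follow, the shares of all tested genes were 0.141% called and 5.92% at an unadjusted p under 0.05 at 30 min, and 0.0861% and 9.57% at 120 min. At 30 min 8 were above and 1 below clean air, with a median of 0.13, and at 120 min 5 were above and 4 below, with a median of 0.06. The medians of all tested genes, also for the lists that follow, were 0.08 and 0.03.

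Dbp, a D-box activator whose transcript follows the CLOCK and BMAL1 pair closely in mouse tissues, had 81.35, 88.23 and 86.0 RPKM in clean air. It had 51.41, 63.49 and 75.12 RPKM at 30 min and 43.68, 59.64 and 47.18 RPKM at 120 min. All exposed mice were below all clean air mice, as for Per3. The differences were -0.44 ± 0.18 (limma adjusted p = 0.818) and -0.77 ± 0.18 (adjusted p = 0.339, unadjusted p = 0.0013). Tef and Hlf, the other D-box activators, did not share that order. Tef differed by 0.06 ± 0.14 and -0.12 ± 0.14, and Hlf by 0.13 ± 0.25 and 0.20 ± 0.25.

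Against clean air, 2 repressors among the other outputs did not overlap, both higher at both times, and the rest did. Of all tested genes, 7.29% did not overlap in the higher direction at 30 min and 7.86% at 120 min. In the lower direction, that of Dbp, the shares were 4.08% and 5.27%. Nr1d1, which encodes REV-ERB alpha, the repressor of Arntl, had means of 107 ± 17.7, 109 ± 15.3 and 103 ± 22.0 RPKM and differed by 0.03 ± 0.20 and -0.06 ± 0.20. Its relative Nr1d2 differed by 0.19 ± 0.19 and 0.06 ± 0.19, and Bhlhb3 (now Bhlhe41), a repressor of E-box genes, by 0.02 ± 0.36 and 0.29 ± 0.36. Nfil3, a D-box repressor that opposes Dbp, had 10.81, 10.46 and 9.16 RPKM in clean air, 21.48, 16.6 and 16.04 RPKM in the 30 min mice and 15.15, 12.22 and 13.89 RPKM at 120 min. Bhlhb2 (now Bhlhe40, also called Dec1), an E-box repressor known to respond to activity, had 27.58, 27.98 and 25.16 RPKM, then 38.6, 45.39 and 45.18 RPKM, and then 30.92, 35.55 and 37.37 RPKM. In both genes the 3 groups were fully separated, with 30 min highest and clean air lowest. Nfil3 differed by 0.79 ± 0.17 at 30 min and 0.42 ± 0.17 at 120 min (limma adjusted p = 0.349 and 0.475), and Bhlhb2 by 0.67 ± 0.15 and 0.35 ± 0.15 (adjusted p = 0.373 and 0.479). Gm129 (now Ciart), a repressor of the CLOCK and BMAL1 pair that was named after its values were seen, had 7.66, 3.81 and 3.59 RPKM in clean air, 5.42, 7.85 and 7.5 RPKM in the 30 min mice and 3.57, 3.33 and 4.45 RPKM at 120 min. Its 30 min and 120 min mice did not overlap, with a difference of -0.79 ± 0.28 (limma adjusted p = 0.999, unadjusted p = 0.0166), while clean air mouse 1 lay among the 30 min mice.

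**Figure D4:**
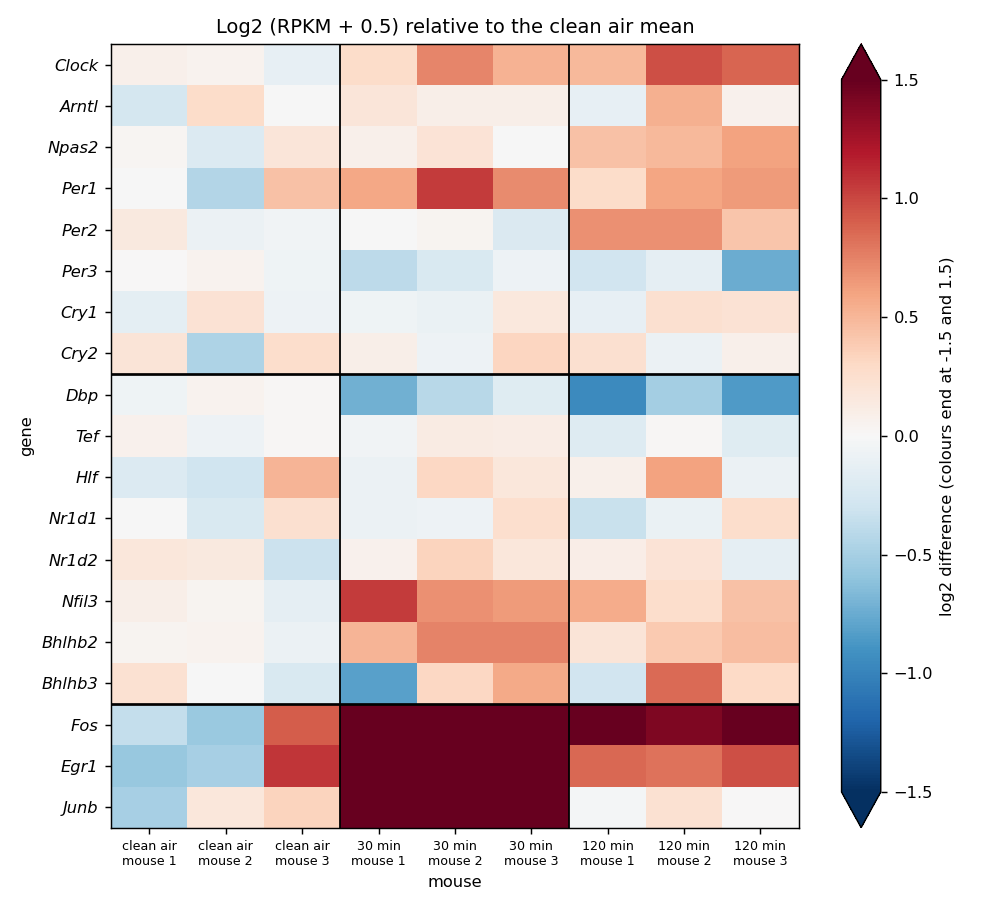
Log2 difference of each mouse from the clean air mean for the core clock genes, the clock output genes and the early genes Fos, Egr1 and Junb (rows, in 3 blocks) in the 9 mice (columns), in colours that run from blue (below) to red (above). On average Per1, Nfil3 and Bhlhb2 are highest in the 30 min mice and Per2 and Npas2 in the 120 min mice, and Dbp and Per3 are lower in the exposed mice than in clean air.

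The list of clock kinases and turnover factors, with Timeless, which is neither, had 0 calls among 7 tested of 8 found, with 1 at an unadjusted p under 0.05 at each time. At each time 6 were above clean air and 1, Timeless, named after its values were seen, below it (-0.09 and -0.61), with medians of 0.19 and 0.24. The kinase gene Gsk3b, named after its values were seen, was the gene concerned, with differences of 0.71 and 0.91 (limma adjusted p = 0.743 and 0.339).

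Activity-induced early genes gave the size of an early-gene response in the same bulk tissue libraries, in which the responding cells were not resolved. All 15 that were tested were called higher at 30 min, with a median of 2.72. At 120 min 13 of the 15 estimates were above clean air, with a median of 0.81, and 5 of them were called. Between 30 min and 120 min 13 of the 15 estimates were below 0, with a median of -2.37, and 9 of them were called, beside 0.0782% of all genes. This list was chosen with these results known and is no independent evidence of its direction. Fos had 170.8, 131.39 and 163.68 RPKM at 30 min and 20.21, 17.15 and 25.01 RPKM at 120 min. It rose by 4.53 ± 0.33 at 30 min (limma adjusted p = 0.000165), whereas the Per1 estimate at that time was 0.78. Egr1, a zinc finger factor, rose by 3.25 ± 0.35, Nr4a1, an orphan nuclear receptor, by 2.99 ± 0.41, and Junb, an AP-1 subunit, by 2.68 ± 0.22. The remaining genes called at 30 min were Arc (3.57), Fosb (3.47), Egr4 (3.07), Npas4 (3.04), Btg2 (2.72), Atf3 (2.52), Ier2 (2.23), Dusp1 (1.97), Nr4a3 (1.87), Egr3 (1.70) and Nr4a2 (1.59). The 5 called at 120 min were Fosb (2.48), Egr3 (2.34), Atf3 (1.92), Nr4a3 (1.88) and Nr4a2 (1.49). Calls of early genes at 120 min depended on single mice: 0 were left without clean air mouse 2 and 0 without 120 min mouse 3, 3 without 120 min mouse 1, 2 without 120 min mouse 2 and 8 were made without clean air mouse 3. With the 30 min mice left out of the fit, 1 was called at 120 min. At 30 min 13 to 15 were called whichever mouse was left out.

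The early genes themselves differed in time. At 120 min Junb, Npas4, Btg2 and Ier2 differed from clean air by 0.07, -0.19, 0.09 and -0.24, while Egr3 had 69.21, 66.33 and 56.4 RPKM at 30 min and 87.81, 102.76 and 107.8 RPKM at 120 min. Per1 at 120 min was between its clean air and 30 min means, and Per2 was high at 120 min and not at 30 min. No test was made of whether the time course of a clock gene matched that of an early gene.

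Genes driven by CREB, the factor that binds CREs, were above clean air in 11 of 11 cases at 30 min and 10 of 11 at 120 min, with medians of 0.48 and 0.53. Called by limma were 3 at 30 min (Fos, Nr4a1 and Nr4a2, which are also early genes) and 1 at 120 min (Nr4a2), with 7 and 5 of 11 at an unadjusted p under 0.05. Of 14 glucocorticoid-responsive genes 11 were above clean air at 30 min and 13 at 120 min, with medians of 0.27 and 0.39. The 1 call among them, Dusp1 at 30 min, is shared with the early genes, and 0 were called at 120 min, where 5 had an unadjusted p under 0.05, against 4 at 30 min. Fkbp5, a chaperone of the glucocorticoid receptor, differed by 0.15 ± 0.24 and 0.73 ± 0.24 (limma adjusted p = 0.918 and 0.376), Tsc22d3 by 0.27 ± 0.18 and 0.16 ± 0.18, and the kinase gene Sgk1 by 0.73 ± 0.25 and 0.45 ± 0.25. Temperature-responsive genes, a list that mixes heat shock genes with the cold-induced Cirbp and Rbm3, had 0 calls among 7 tested, with medians of 0.28 and 0.19 and unadjusted p under 0.05 for 1 at 30 min and 2 at 120 min. Named after their values were seen, the chaperone gene Hspa8 differed by 0.64 and 0.75 (limma adjusted p = 0.818 and 0.391) and Cirbp by -0.55 and -0.65 (adjusted p = 0.828 and 0.474), while Rbm3 differed by 0.17 and 0.50. The part of glucocorticoid or temperature signals in the clock genes was not tested.

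The readings that bear on activity and on the hour of collection can be set side by side. Early genes outside the loop, a list chosen with these results known, rose by 1.59 to 4.53 at 30 min. The 11 CREB-driven genes, which include Fos, Nr4a1 and Nr4a2, had a median of 0.48 at that time. Per1, Nfil3 and Bhlhb2 were separated from clean air at 30 min by 0.67 to 0.79. Clock was separated from clean air by 0.51 at 30 min and 0.78 at 120 min. Of the genes that track the daily phase in mouse tissues, Dbp and Per3 were lower in all exposed mice, Nr1d1, Tef, Arntl and Cry1 overlapped with clean air, and Per2 and Npas2 were separated from clean air at 120 min and overlapped with it at 30 min. An exposure effect and a difference in hour between the groups cannot be told apart in these data, since no group of clean air mice was labelled as killed at another hour.

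The genes whose levels were most like those of 3 clock genes were ranked by Pearson r of log2 values over the 9 libraries, as a description in which all libraries share the 3 groups and the depth of each mouse. For Per1 they were Rhou (0.976), Zfp532 (0.939), Rasd1 (0.926), Kif5c (0.921) and Tmtc3 (0.92). Rasd1, whose protein is a dexamethasone-induced small GTPase, had 2.6, 1.17 and 4.53 RPKM in clean air, 6.49, 6.68 and 5.86 RPKM in the 30 min mice and 4.88, 4.47 and 6.82 RPKM at 120 min. For Per2 they were Ush1g (0.95), Rab27a (0.938), 1500001A10Rik (0.927), Tnc (0.918) and Zhx2 (0.898), and for Arntl Gm12353 (0.926), Macf (0.917), Ddx50 (0.914), Plekhh2 (0.913) and Tnrc6a (0.912). Zhx2 had 7.39, 5.68 and 5.86 RPKM in clean air, 6.34, 6.54 and 6.92 RPKM in the 30 min mice and 9.17, 10.55 and 9.73 RPKM at 120 min. Its 120 min mice lay above the other 6 as those of Per2 did, a likeness favoured by choosing genes by correlation with Per2.

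Gene length moved with the differences. The median difference of genes grouped by exonic length went from 0.00 in the shortest group (54 to 2462 nt) to 0.18 in the longest (7767 to 123179 nt) at 30 min, and from -0.08 to 0.17 at 120 min. Clock and Per3, both in the longest group with 13727 and 9608 nt, lay on opposite sides of that median. Per1 (5631 nt) and Per2 (5856 nt) are nearly equal in length, and their groups had medians of 0.10 and 0.08 at 30 min and 120 min. With the length trend removed, Per1 differed by 0.70 at 30 min and Clock, as given above, by 0.31. The same step moved Per3 away from 0, to -0.38 at 30 min and -0.54 at 120 min.

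**Figure D5:**
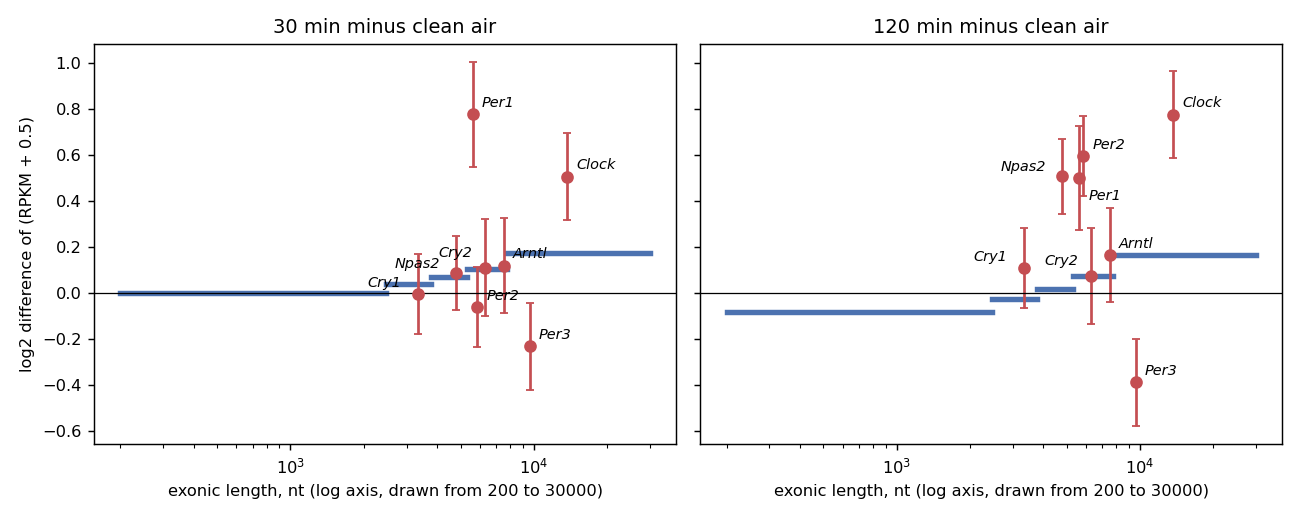
Difference from clean air on the log2(RPKM + 0.5) scale against exonic length in nt (log axis, with the first and last length group cut at the edge of the plot) for the core clock genes at 30 min and 120 min, with red points for estimates, red bars for SE and blue lines for the median of all genes in each of 5 length groups. Clock stands above and Per3 below the median of the longest group, which is 0.18 at 30 min and 0.17 at 120 min.

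The dissection was read from cell type markers. Mitral and tufted cell markers summed to 1040 to 1437 RPKM in clean air, 1027 to 1191 RPKM at 30 min and 1145 to 1223 RPKM at 120 min, and those of granule and other interneurons to 706 to 1119, 1029 to 1059 and 974.57 to 1074 RPKM, so the bulb was represented in all groups. Of the 6 markers of the suprachiasmatic nucleus, the central clock, Avp, Six6, Rorb and Lhx1 had means under 1 RPKM. The others, Vip (6.57 to 15.61 RPKM) and Prok2 (1.53 to 3.08 RPKM), named after their values were seen, were present in every library. Which cells those 2 transcripts came from was not tested. The sums overlapped between groups for those 3 lists and for olfactory sensory neurons, astrocytes, oligodendrocytes, microglia, endothelial and mural cells, and choroid plexus and meninges, and 0 of the tested markers of any list were called by limma. At an unadjusted p under 0.05 there were 7 of 44 markers at 30 min, beside 5.92% of all genes, and 6 of 44 at 120 min, beside 9.57%.

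Within the list of mitral and tufted cells, the output neurons of the bulb, 3 of 6 markers at 120 min had an unadjusted limma p under 0.05, beside 9.57% of all genes. Of the 6, Tbx21 and Reln did not overlap with clean air, both higher, beside 7.86% of all genes in that direction. The median of the list was 0.42 against 0.03 for all genes. Not all of the list moved that way: 4 estimates were above clean air and 2 below. The 2 below, named after their values were seen, were Doc2g (-0.27) and Slc17a7 (-0.03). Tbx21, named after its values were seen, had 15.72, 20.13 and 16.52 RPKM in clean air, 16.92, 15.86 and 20.63 RPKM in the 30 min mice and 26.39, 23.11 and 25.44 RPKM at 120 min. Its 120 min mice lay above the other 6, as those of Npas2 and Per2 did. Reln, named in the same way, had a difference of 0.90 ± 0.27 at 120 min (limma adjusted p = 0.345).

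The sums of 3 marker lists separated groups in which clock genes also differed. Red blood cell markers summed to 38.0 to 145 RPKM in clean air, 153 to 197 RPKM at 30 min and 46.3 to 189 RPKM at 120 min, with 3 of 4 markers found and Hba-a1 listed at 0 in every library. Dopaminergic periglomerular markers summed to 167 to 196 RPKM in clean air, 201 to 235 RPKM at 30 min and 187 to 273 RPKM at 120 min, with 4 of 4 found and Dbh under 1 RPKM. Most of this sum was Th, with 157.19 to 182.8 RPKM in clean air and 188.34 to 219.82 RPKM at 30 min. Ddc and Slc6a3, named like Th after their values were seen, overlapped between clean air and 30 min. Markers of frontal cortex neurons, which lie behind the bulb, summed to 28.6 to 31.4 RPKM in clean air, 34.7 to 42.3 RPKM at 30 min and 36.4 to 48.5 RPKM at 120 min over 4 genes, above clean air in all exposed mice as for Clock. Most of that sum was Rasgrf2, and the defining gene Neurod6 had a mean under 1 RPKM. The part of these cells, and of mitral and tufted cells, in the Per1, Clock, Npas2, Per2, Per3 and Dbp values was not tested.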

How the data were processed

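Polyadenylated RNA of 9 olfactory bulb libraries was measured, 3 mice in each of 3 groups. The authors deposited RPKM values for 27497 identifiers, made from reads aligned with Bowtie to mm9, per the submitters' processing notes. Annotation, counting rule and strandedness were not given in the sources used here. No count table was used. Depth came from the step size between RPKM values of 2011 RNAs under 200 nt, with lengths taken 34 nt shorter, which made 81.3% to 92.9% of multiples whole within 0.05.

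Values were fitted with limma 3.58.1 (R 4.3.3) as log2(RPKM + 0.5) for the 12780 genes whose mean reached 1 RPKM, with a mean-variance trend, over all 9 libraries and with 6 residual degrees of freedom. The pseudocount makes differences of low genes smaller. Tests were two-sided and adjusted by Benjamini-Hochberg within a comparison. Errors are SE for log2 differences and SD for levels. The fit was tested on simulated data. Ratios were tested by exact permutation with scipy 1.17.1.

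Mouse numbers from the sample titles paired clean air and 30 min mice by a rule on the data: deviations of same-numbered mice correlated at 0.30, 0.38 and 0.15, all over 0.1, while nothing in the labels ties the numbers to a litter or day. The codes in the sample descriptions number mice 2 and 3 of the clean air group differently from those of the exposed groups. The main fit has no block.

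The members, gene lists and panel were chosen with earlier results of these data known. Named are the 8 members, every list gene called, a set panel of early, output and glucocorticoid-responsive genes, and the 5 genes most like Per1, Per2 and Arntl, with any other gene marked where it appears. Alternatives covered pseudocounts, filters, scaling, the groups fitted, the block, the trend, array weights and leaving out each mouse, and a length correction was added after seeing the data. A gene of the output list and a gene of the frontal cortex list are not reported here.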

Additional observations from a re-analysis of the deposited data

How the results depend on the processing

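Over all alternatives, 0 of the 8 clock genes were called by limma in any comparison, and the lowest adjusted p was 0.176, for Clock at 120 min with a replicate block. In the main fit 2 members had an unadjusted p under 0.05 at 30 min and 3 at 120 min. The block gave 22 calls over all genes at 30 min against 18 without it, and 11 at 120 min, as without it, and it changed no call of a clock gene. Deviations of same-numbered mice correlated at 0.22, 0.39 and 0.09 between clean air and 120 min. Between 30 min and 120 min they correlated at 0.32, 0.44 and 0.08. In each pair of groups every mouse correlated best with its own number, a hint from the data and not the design. Mouse 1 of the clean air, 30 min and 120 min groups had a depth of 10.5, 8.81 and 9.87 megareads. For mouse 2 depth was 22.2, 29.0 and 24.2, and for mouse 3 it was 29.9, 17.5 and 7.17. The part of depth in these correlations was not tested.

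The count of genes called at 120 min depended on the setting. It was 11 in the main fit, 7 with a mean of at least 5 RPKM, 2 with only the 2 groups compared, 7 with array weights and 6 with the length correction, and 0 to 11 when 1 mouse was left out. It was 0 without clean air mouse 2 (1092 genes at an unadjusted p under 0.05) and 0 without 120 min mouse 3 (855), 3 without 120 min mouse 1 or 2 and 6 without clean air mouse 1. The fits that compared only 2 groups, or left out a mouse, held fewer samples, and the cause of the other shifts was not tested.

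Of 528 alternative values for differences of clock genes, 511 kept their direction and 17 changed sign, all from estimates of at most 0.16 in size. Part of the 511 was fixed in advance, so their share is no measure of stability. The filters, the block, the trend setting and fits of only 2 groups leave an estimate unchanged. Leaving out a mouse of the group not compared does so too. Cry1 at 30 min was 0.068 with array weights, and Cry2 between 120 min and 30 min was 0.0011 after median-centring. Leaving out 1 mouse gave -0.011 to 0.26 for Arntl, -0.11 to 0.017 for Per2, -0.014 to 0.18 for Npas2, -0.085 to 0.10 for Cry1 and -0.12 to 0.24 for Cry2 at 30 min. At 120 min it gave -0.15 to 0.20 for Cry2, -0.024 to 0.30 for Arntl and -0.27 to 0.15 for the ratio of Per1 to Per2. Between 120 min and 30 min it gave -0.13 to 0.072 for Cry2, -0.14 to 0.18 for Arntl and -0.28 to 0.023 for Per3. The cause was not tested. Depth of 7.17 to 29.9 megareads and 3 mice per group limit what can be resolved.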
